A study of Mus musculus with 9 samples.

Results

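The genes described here encode the nuclear subunits of the mitochondrial respiratory chain and of ATP synthase. They were chosen by symbol, through the RefSeq accession that the array files give for each probe: symbols beginning with Ndufa, Ndufb, Ndufc, Ndufs or Ndufv and a digit, Sdha to Sdhd, symbols beginning with Uqcr or Atp5, and Cox4 to Cox8 followed by a letter. Assembly factors (Ndufaf), pseudogenes and Cox10 or higher were left out. The rule found 83 genes, measured by 112 probes, among the 32450 genes or identifiers of the array: 37 of complex I, 4 of complex II, 8 of complex III, 18 of complex IV and 16 of complex V, each assigned by its symbol. Of the 83, 82 passed the filter on dim probes in at least 1 group and were tested, and 81 were well above background on all 9 arrays. Cox8b, a subunit isoform of heart and skeletal muscle, was well above background on 0 arrays. Cox6a2, another muscle isoform, missed that level on PGC replicate 2 alone.

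The mouse cells were sorted and fell into 3 groups of 3 arrays each. Control cells were embryonic stem (ES) cells of the male 129SV line VV3, in which the Ddx4 (Vasa) promoter drives the fluorescent protein Venus, collected as live single cells 3 days after transfection with a non-silencing siRNA (AllStars). Max knockdown cells were VV3 cells 3 days after transfection with siRNA against Max, the DNA-binding partner of MYC and MGA, of which only Venus-positive cells were collected, so that siRNA and Venus gate differed together. Both groups were grown with LIF. Primordial germ cells (PGCs), from which gametes later form, were sorted by GFP from male genital ridges at E13.5, in embryos that carried the Oct4ΔPE-GFP transgene and came from MCH x C57BL6/J matings, so they differed from the ES cells in strain and in having no culture as well as in cell type. VV3 is 1 line, and the knockdown was transient. The study's design text calls the replicates biological. Labelling started from 100 ng of RNA in every sample.

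The respiratory chain passes electrons from NADH through complex I, or from succinate through complex II, by way of ubiquinone to complex III, cytochrome c and complex IV, where oxygen is reduced. Complexes I, III and IV pump protons across the inner mitochondrial membrane, and complex V, the ATP synthase, uses their return to make ATP. A few core subunits of complexes I, III, IV and V are encoded in mitochondrial DNA, and none of these was found by name on the array. Several complex IV subunits have a common isoform and a paralog known from particular tissues, such as testis, heart and skeletal muscle, or lung. Cox7b2, Cox8c and Cox6b2 are the testis isoforms.

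A level below means the log2 signal of a probe relative to the 75th percentile of its array. Levels of different genes come from different probes and are not compared as amounts of RNA. A difference means the difference between the mean levels of 2 groups, with the standard error (SE) of the limma fit. Rose, fell, higher and lower are used for differences past an adjusted p of 0.05 over all 20443 genes tested. RNA came from bulk sorts, in which fewer cells of a type and less RNA per cell cannot be told apart.

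Promoters of 67 of the 83 genes, 72 in all, were in the RefSeq promoter table of build GRCm38.p6. In the 250 bases before the start, on either strand, 4 short motifs were searched: the E-box CACGTG, which MYC with MAX and other factors of that class bind; GCGCATGC, of the respiratory gene regulator NRF1; CCGGAAG, of ETS factors; and TCCCGCC, of E2F factors. The E-box was found in 8.33% of the subunit promoters against 6.02% of all 32851 promoters in the table. GCGCATGC was found in 11.1% against 2.26%, CCGGAAG in 16.7% against 6.91%, and TCCCGCC in 19.4% against 9.75%. Below are the 250 bases before the start of 5 genes, chosen after their values were seen, 5′ to 3′ on the gene's strand, with motif matches in capitals. Cox7b2 and its common paralog Cox7b are shown because their levels moved differently. Ndufa6, Ndufv1 and Atp5l are shown because they rose at least 2-fold in PGCs and held a motif match. Ndufb2, Ndufs5 and Cox8c also rose at least 2-fold, and no match was found for them.
Cox7b2 (chr5:71548206-71548455, minus strand, an E2F motif match): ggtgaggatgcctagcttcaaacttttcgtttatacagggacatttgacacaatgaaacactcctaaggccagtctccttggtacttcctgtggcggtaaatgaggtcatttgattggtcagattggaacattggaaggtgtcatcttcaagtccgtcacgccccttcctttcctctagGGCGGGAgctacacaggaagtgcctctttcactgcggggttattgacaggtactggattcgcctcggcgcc
Cox7b (chrX:106015450-106015699, plus strand, no match): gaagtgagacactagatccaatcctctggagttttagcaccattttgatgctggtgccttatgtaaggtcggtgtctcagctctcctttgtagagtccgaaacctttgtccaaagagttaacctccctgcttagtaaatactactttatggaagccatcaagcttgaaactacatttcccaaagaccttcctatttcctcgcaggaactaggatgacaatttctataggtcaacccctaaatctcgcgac
Ndufa6 (chr15:82354292-82354541, minus strand, an NRF1 match): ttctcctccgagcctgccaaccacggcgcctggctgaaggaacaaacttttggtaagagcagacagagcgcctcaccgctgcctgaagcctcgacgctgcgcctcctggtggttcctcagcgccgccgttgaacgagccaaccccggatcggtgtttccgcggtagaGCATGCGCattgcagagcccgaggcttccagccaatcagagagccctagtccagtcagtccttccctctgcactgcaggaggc
Ndufv1 (chr19:4012756-4013005, minus strand, an E-box): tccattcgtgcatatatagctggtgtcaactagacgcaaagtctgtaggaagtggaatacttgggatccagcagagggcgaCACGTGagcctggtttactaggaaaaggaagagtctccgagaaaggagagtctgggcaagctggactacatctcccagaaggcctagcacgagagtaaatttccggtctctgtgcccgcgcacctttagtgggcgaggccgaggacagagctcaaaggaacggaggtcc
Atp5l (chr9:44920743-44920992, minus strand, an NRF1 match, an ETS match and an E-box): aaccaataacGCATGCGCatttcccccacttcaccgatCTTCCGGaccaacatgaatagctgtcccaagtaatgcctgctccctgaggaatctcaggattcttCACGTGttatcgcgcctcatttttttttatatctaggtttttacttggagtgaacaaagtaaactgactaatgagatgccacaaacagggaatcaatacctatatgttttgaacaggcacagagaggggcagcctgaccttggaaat
The 5 subunit genes with an E-box were Atp5g3, Atp5l, Atp5pb, Ndufa7 and Ndufv1. Their median difference between Max knockdown and control cells was 0.09, against -0.05 for the subunit genes with a promoter entry and no E-box, and between PGCs and control cells 0.63 against 0.47. The 8 genes with GCGCATGC (Atp5g2, Atp5k, Atp5l, Cox6a1, Ndufa11, Ndufa6, Ndufa8 and Sdhb) had a median PGC difference of 0.75, against 0.47 for those without it. For CCGGAAG the PGC medians were 0.63 with and 0.43 without, and for TCCCGCC 0.47 with and 0.48 without. These are descriptions of letters in a window, and no binding was measured.

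Of the 43020 spots, 58.2% to 67.6% per array passed the background flag, and none was saturated. The correlation across genes was 0.991 to 0.995 between replicates and 0.866 to 0.882 between an ES cell and a PGC array. The level of Max was 2.84, 2.74 and 2.85 in control cells, 0.59, 0.83 and 1.13 in Max knockdown cells and 3.77, 3.65 and 3.57 in PGCs, and fell by 1.96 in knockdown cells (SE 0.14, adjusted p = 2.9e-05). Of 11 germ cell markers, 11 were well above background on every PGC array and 9 on every control array. Higher than in control cells were 11 in PGCs and 7 in knockdown cells (100% and 63.6%, against 43.2% and 18.2% of all genes tested). The 7 include Ddx4 (2.64), whose promoter drives the Venus that knockdown cells were sorted for, so its rise there is not independent of the sort. Of 10 ES cell markers, 10 were well above background on every control array and on every PGC array. In PGCs 6 were lower and 3 higher than in control cells (60% and 30%, against 32.4% and 43.2% of all genes tested).

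The median level of the 82 tested subunit genes was 4.51, 4.53 and 4.58 on the control arrays, 4.66, 4.54 and 4.69 on the Max knockdown arrays, and 4.94, 5.20 and 5.10 on the PGC arrays. As mean ± SD over 3 arrays this was 4.54 ± 0.03, 4.63 ± 0.08 and 5.08 ± 0.13. The PGC arrays lay above all 6 ES cell arrays, and the control and knockdown arrays overlapped. Subunit medians lay 5.36, 5.42 and 5.98 above the median of all genes tested on control, knockdown and PGC arrays (means over 3 arrays). Shares over all genes, given below for comparison, thus come mostly from probes dimmer than those of the subunit genes.

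**Figure D1:**
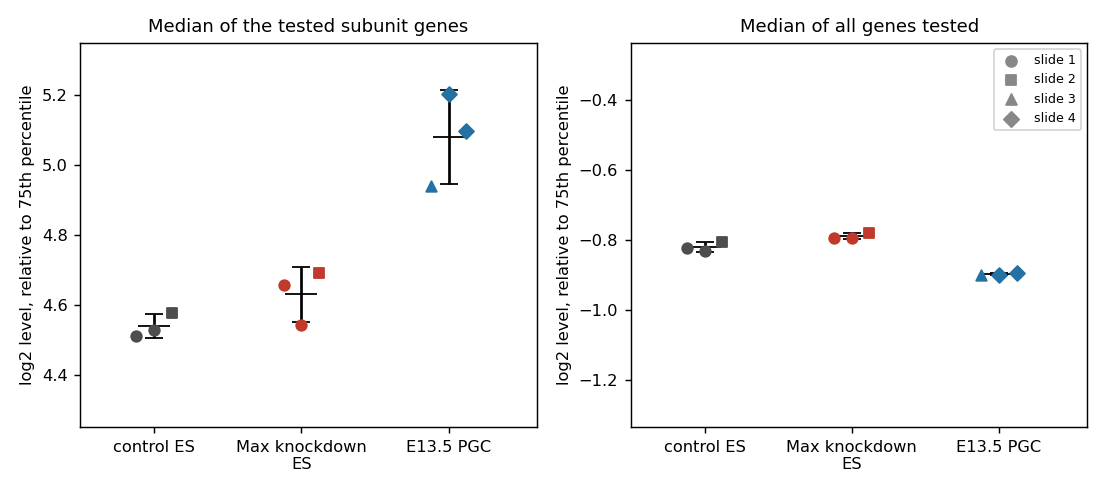
Median log2 level per array, relative to the 75th percentile of the array, of the 82 tested subunit genes (left) and of all 20443 genes tested (right), by group, with marker shape for the slide and the mean ± SD of 3 arrays. The subunit medians of the PGC arrays lie between 4.94 and 5.20, above the 6 ES cell arrays, and no slide holds both PGC and ES cell arrays.

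The first comparison asks what the respiratory chain transcripts do in Venus-positive Max knockdown ES cells. Most subunit genes did not pass the test there: 5 rose, 13 fell and 64 of 82 did not pass. That is 6.10% higher and 15.9% lower, against 18.2% and 21.9% of all genes tested. The median difference of the subunit genes was -0.05, beside -0.07 for all genes, and was 0.08 with quantile normalization. At least 2-fold changes were a rise of Cox7b2 and a fall of Ndufa4l2. By complex, 3 rose and 6 fell of 37 in complex I, 0 and 1 of 4 in complex II, 0 and 0 of 8 in complex III, 1 and 4 of 17 in complex IV, and 1 and 2 of 16 in complex V.

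Cox7b2, the testis paralog of the complex IV subunit Cox7b, showed the largest rise. It stood at -4.61, -4.99 and -4.50 in control cells, -2.18, -2.40 and -2.34 in Max knockdown cells and -0.73, -1.29 and -0.47 in PGCs. The lowest signals flagged well above background on the control arrays were -5.61, -5.78 and -5.94, so Cox7b2 was dim there. No array of one group overlapped with another group, and knockdown cells lay between the other two. The difference from control was 2.40 in knockdown cells (SE 0.21, adjusted p = 8.9e-05) and 3.87 in PGCs (SE 0.21, adjusted p = 5.6e-07). Cox7b, the common isoform, lay at 5.34, 5.43 and 5.53, then 4.99, 5.06 and 5.16, then 5.48, 5.79 and 5.62 in the same order of groups. It fell by 0.36 in knockdown cells (adjusted p = 0.025) and its difference of 0.19 in PGCs did not pass (adjusted p = 0.12). The fall of Cox7b was not past the threshold without control replicate 2 or 3, or without knockdown replicate 1 or 2.

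The other testis isoforms differed from Cox7b2. Cox8c levels were -2.76, -2.13 and -2.13 in control cells, -2.62, -1.91 and -1.86 in knockdown cells and -0.95, -0.80 and -0.83 in PGCs. Its knockdown difference of 0.21 did not pass (SE 0.23, adjusted p = 0.51), the 2 ES cell groups overlapped, and in PGCs it rose by 1.48 (SE 0.23, adjusted p = 0.00041). Cox6b2 went down in the knockdown: it stood at 2.81, 2.33 and 2.15 in control cells, 1.75, 1.75 and 1.52 in knockdown cells and 2.30, 2.45 and 2.11 in PGCs. The knockdown fall was 0.76 on the log2 scale (SE 0.17, adjusted p = 0.009), and PGCs overlapped with control cells (difference -0.14, adjusted p = 0.48). The difference of PGCs from knockdown cells was 0.61 (adjusted p = 0.011), and it was -0.36 with spike-in scaling.

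Of the common partners, Cox8a stood at 6.71, 6.78 and 6.75 in control cells, 6.70, 6.65 and 6.71 in knockdown cells and 6.45, 6.76 and 6.46 in PGCs, and did not pass in any comparison. Cox6b1 stood at 1.97, 2.24 and 2.16 in control cells, 1.52, 1.93 and 1.95 in knockdown cells and 2.73, 2.86 and 2.59 in PGCs. Its knockdown difference of -0.32 did not pass (adjusted p = 0.10), and its PGC rise was 0.61 (adjusted p = 0.0038), or -0.35 with spike-in scaling.

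Ndufa4l2, a paralog of Ndufa4 known as a gene induced by hypoxia, showed the largest falls of all subunit genes in both comparisons with control cells. It was at 4.05, 3.93 and 3.57 in control cells, 2.67, 2.88 and 2.16 in knockdown cells and -1.26, -1.25 and -1.22 in PGCs. The groups did not overlap. The difference was -1.28 in knockdown cells (SE 0.19, adjusted p = 0.0011) and -5.09 in PGCs (SE 0.19, adjusted p = 7.4e-08), and on the PGC arrays the probe was still well above background. Ndufa4, named as a complex I subunit and now counted with complex IV, lay at 3.59, 3.57 and 3.55 in control cells, 3.69, 3.59 and 3.67 in knockdown cells and 3.63, 4.04 and 3.89 in PGCs. Its PGC difference of 0.28 passed (adjusted p = 0.042), but not without PGC replicate 2 or 3 or any single control array, and was -0.67 with spike-in scaling.

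Cox4i2, the lung isoform of Cox4 and likewise known to respond to hypoxia, went the same way as Ndufa4l2. Its levels were -0.93, -0.97 and -1.31 in control cells, -1.67, -1.33 and -1.68 in knockdown cells and -2.69, -2.53 and -2.27 in PGCs. The knockdown fall of 0.49 (SE 0.16, adjusted p = 0.037) did not pass when control replicate 1 or 2 or knockdown replicate 1 or 4 was left out, and the PGC fall of 1.43 (SE 0.16, adjusted p = 4.2e-05) held with each array left out. Cox4i1, the common isoform, stood at 6.72, 6.73 and 6.72 in control cells, 6.54, 6.57 and 6.64 in knockdown cells and 7.07, 7.30 and 7.16 in PGCs. It did not pass in knockdown cells (-0.14, adjusted p = 0.21) and was 0.45 higher in PGCs (adjusted p = 0.0011), or -0.50 with spike-in scaling.

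The muscle isoforms gave no call. Cox6a2 was at -3.90, -4.08 and -3.89 in control cells, -4.62, -4.83 and -4.74 in knockdown cells and -4.23, -5.36 and -4.02 in PGCs, with differences of -0.78 (adjusted p = 0.07) and -0.58 (adjusted p = 0.11). Cox7a1 stood at 3.97, 3.62 and 3.48 in control cells, 3.65, 3.49 and 3.32 in knockdown cells and 3.27, 3.88 and 3.40 in PGCs, and every pair of groups overlapped. Of 6 tested muscle and heart markers, 4 were lower in PGCs than in control cells (66.7%, against 32.4% of all genes tested). Actc1, Myl7, Tnnt2 and Mb were well above background on 0 PGC arrays.

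**Figure D2:**
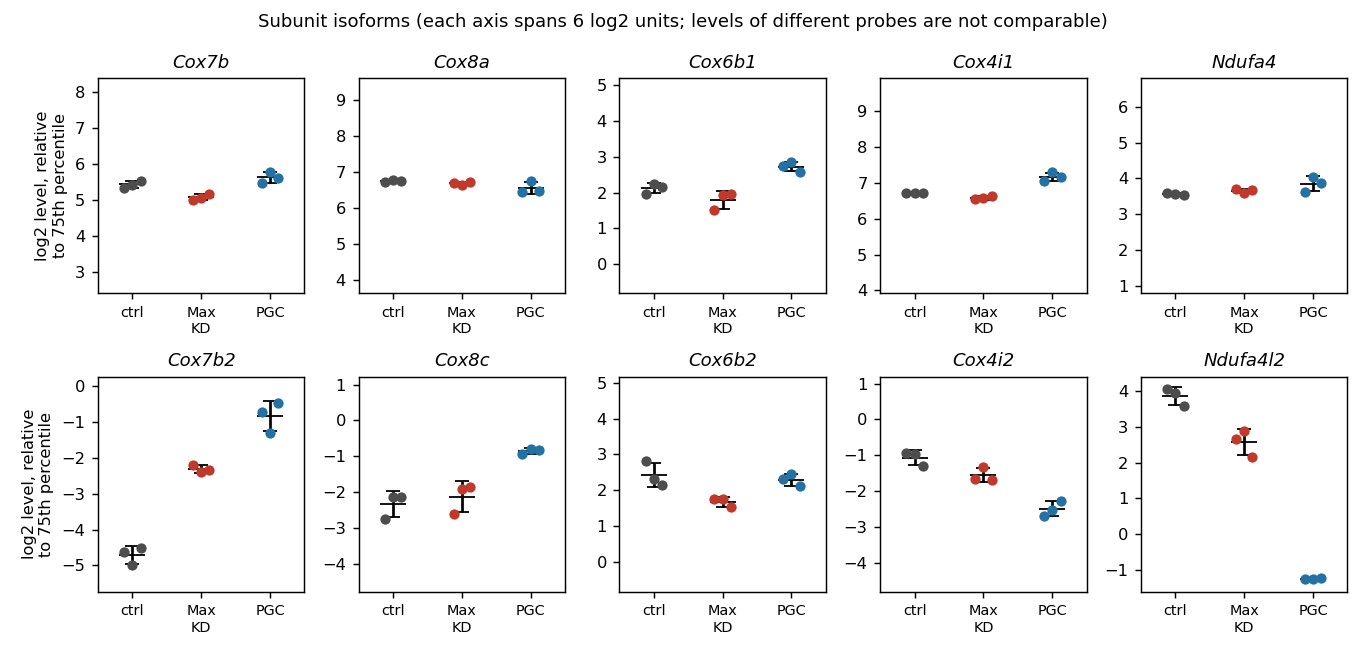
Log2 level of 5 common subunits (top) and their paralogs (bottom) on each array, relative to the 75th percentile, by group. Bars give the mean ± SD of 3 arrays, and every axis spans 6 log2 units. Cox7b2 lies near -4.7 in control, -2.3 in Max knockdown and -0.8 in PGC arrays, and Ndufa4l2 near 3.9, 2.6 and -1.2, while the common subunits move by less than 1 unit.

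Among the other subunits that rose in knockdown cells, Ndufa1, a small membrane subunit of complex I encoded on the X chromosome, changed most. It stood at 4.15, 4.15 and 4.30 in control cells, 5.04, 4.72 and 4.93 in knockdown cells and 3.73, 4.16 and 3.94 in PGCs. The knockdown rise was 0.70 (SE 0.13, adjusted p = 0.0033), PGCs overlapped with control cells (-0.26, adjusted p = 0.10), and PGCs were lower than knockdown cells by 0.95 (log2 -0.95, SE 0.13, adjusted p = 0.00016). Atp5pb, subunit b of the ATP synthase stalk, rose by 0.45 (SE 0.11, adjusted p = 0.012), from 3.62, 3.74 and 3.88 to 4.17, 4.13 and 4.30. Ndufs1, the large iron-sulfur subunit of complex I, rose by 0.39 (SE 0.09, adjusted p = 0.012), from 4.47, 4.45 and 4.52 to 4.90, 4.77 and 4.94. In all 3 genes each knockdown array lay above each control array. Ndufa11 was 0.35 higher (adjusted p = 0.016).

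Of the falls, Sdha, the flavoprotein subunit of succinate dehydrogenase, went from 3.76, 3.79 and 3.76 in control cells to 3.47, 3.26 and 3.32 in knockdown cells, a difference of -0.42 (SE 0.09, adjusted p = 0.0051). Ndufa13, also known as GRIM-19, went from 6.33, 6.21 and 6.35 to 5.997, 5.88 and 5.99 (-0.34, adjusted p = 0.021). Atp5c1, the rotating gamma subunit of the F1 head, went from 5.50, 5.55 and 5.62 to 5.31, 5.08 and 5.27 (-0.34, adjusted p = 0.039). Atp5g3, a gene for the c ring, went from 5.71, 5.66 and 5.81 to 5.50, 5.43 and 5.50 (-0.25, adjusted p = 0.044). Sdha kept its call with each array left out, and Atp5g3 and Atp5c1 lost theirs (Atp5g3 with any of the 6 ES cell arrays left out, Atp5c1 with any but knockdown replicate 1). Apart from Ndufa4l2, Cox6b2 and Cox4i2, the falls measured 0.42 or less on the log2 scale.

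The count of falls moved with single arrays and with the scaling. Lower members numbered 6 without control replicate 1, 5 without control 2 or 3, 8, 4 and 6 without knockdown replicate 1, 2 or 4, 5 with quantile normalization (beside 15 higher) and 0 with spike-in scaling, where Cox7b2 was the single rise. Over all genes tested, spike-in scaling gave 719 higher and 288 lower, beside 3720 and 4485 in the main fit. Its medians were -0.03 for subunit genes and -0.05 for all genes. Quantile normalization gave 3783 higher and 4318 lower over all genes. The share of rises among subunit genes was then close to that of all genes. With each array left out in turn, 4 of the 5 rises (Cox7b2, Ndufa1, Ndufs1 and Atp5pb) and 3 of the 13 falls (Ndufa4l2, Cox6b2 and Sdha) kept their call. Within slide 1, with 2 control and 2 knockdown arrays, the median difference was -0.06, and within slide 2, with 1 of each, -0.04. Fibroblast markers moved with the same groups: 0 of 8 tested rose and 6 fell in knockdown cells (0% and 75%, against 18.2% and 21.9% of all genes tested). The summed level of these markers was 1.98 to 2.61 on control arrays and 0.39 to 0.53 on knockdown arrays, with Postn and Lum above background on none of these arrays. The part of fibroblasts in the falls of the subunit genes was not tested.

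**Figure D3:**
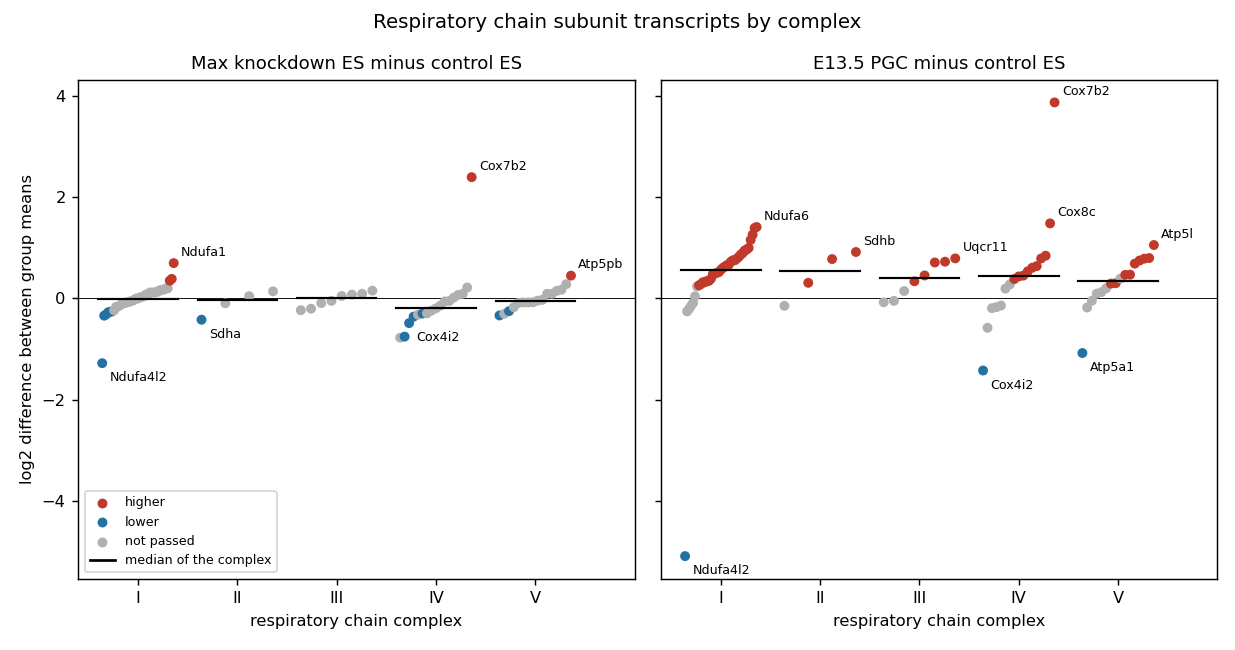
Log2 difference of each tested subunit gene from control ES cells, by complex, in Max knockdown ES cells (left) and PGCs (right), with genes past adjusted p 0.05 in colour and the median of each complex as a bar. In PGCs the bars lie between 0.35 and 0.56 relative to the 75th percentile (between -0.60 and -0.39 with spike-in scaling), and Ndufa4l2, Cox4i2 and Atp5a1 lie below -1.

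The second comparison sets PGCs against control ES cells. Relative to the 75th percentile, 57 of 82 subunit genes were higher in PGCs, 3 were lower (Ndufa4l2, Cox4i2 and Atp5a1) and 22 did not pass. That is 69.5% higher and 3.66% lower, against 43.2% and 32.4% of all genes tested. The median difference was 0.47, beside 0.18 for all genes, and 62 of the 82 lay above the latter. Of the rises, 7 were at least 2-fold (Cox7b2, Cox8c, Ndufa6, Ndufb2, Ndufs5, Ndufv1 and Atp5l), as were the 3 falls.

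The sign of these differences depended on the scaling, and the distance from the other genes on the filter. With scaling on 7 spike-in probes, which measure RNA added in fixed amounts at labelling, the median of all genes moved from 0.18 to -0.77. That of the subunit genes moved from 0.47 to -0.48, with 1 subunit gene higher (Cox7b2) and 5 lower, beside 1162 and 7458 of all genes. The 75th percentile over the spike-ins was -0.60, -0.63 and -1.83 on control arrays and -0.77, -0.59 and -1.64 on knockdown arrays (log2). On PGC arrays it was -1.39, -2.35 and -2.17. It thus differed between slides within each group as well as between groups. A scaling of this kind moves every gene on an array alike, so the distance of 0.29 between both medians was the same. Quantile normalization left 49 higher and 11 lower, beside 8364 and 6978 of all genes, with medians of 0.32 (subunit genes) and 0.10 (all genes). With no filter on dim probes, the median of all genes was 0.50 and that of the subunit genes 0.47.

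**Figure D4:**
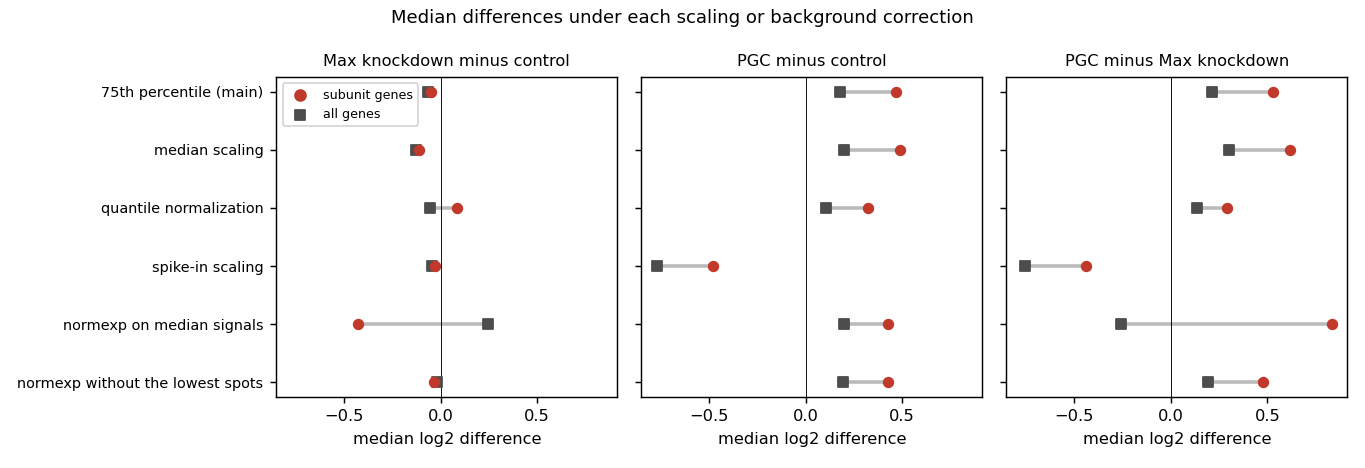
Median log2 difference of the subunit genes (circles) and of all genes tested (squares) in each comparison, with the main scaling, 3 other scalings and 2 background corrections. For PGC minus control the circles lie to the right of the squares in each setting shown, by 0.29 in the main one, while both turn negative with spike-in scaling (-0.48 and -0.77). Median and spike-in scaling keep the distance of the main scaling by construction. The setting with no filter on dim probes, not shown, gave 0.47 for the subunit genes and 0.50 for all genes.

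Complex I, which oxidises NADH, had 30 genes higher and 1 lower (Ndufa4l2) of 37 (81.1% and 2.70%, against 43.2% and 32.4% of all genes). Its median was 0.56 (-0.39 with spike-in scaling). Of its 7 core subunits, which carry the flavin and the iron-sulfur clusters or shape the ubiquinone site, 5 rose. Ndufv1, which binds NADH, stood at 4.98, 5.16 and 5.25 in control cells, 5.22, 5.17 and 5.34 in knockdown cells and 6.34, 6.26 and 6.25 in PGCs, and rose by 1.16 in PGCs (SE 0.10, adjusted p = 6.5e-06). Ndufs7 rose by 0.97 (adjusted p = 3.5e-06), Ndufs3 by 0.72 (adjusted p = 3.3e-05), Ndufs1 by 0.60 (adjusted p = 0.00039) and Ndufs8 by 0.32 (adjusted p = 0.0074). Ndufv2, which carries an iron-sulfur cluster beside Ndufv1, did not pass, at -0.21 (adjusted p = 0.12), and overlapped with control cells. So the core subunits of one complex spread over more than 1 log2 unit, from -0.21 to 1.16.

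Of the 29 accessory subunits counted with complex I by symbol, Ndufa4 among them, 25 rose and 0 fell. Their shares were 86.2% and 0%, against 43.2% and 32.4% of all genes tested. Ndufa6 showed the largest difference, at 3.36, 3.41 and 3.38 in control cells, 3.57, 3.56 and 3.52 in knockdown cells and 4.63, 4.93 and 4.83 in PGCs (1.41 over control, SE 0.09, adjusted p = 1.5e-06). Ndufb2 stood at 0.93, 1.42 and 1.26, then 1.12, 1.40 and 1.22, then 2.37, 2.69 and 2.72 (1.39, SE 0.15, adjusted p = 4.2e-05). For both genes every PGC array lay above every ES cell array. Ndufs5, a small subunit on the outer face of the membrane, rose by 1.26 (adjusted p = 9.4e-06). The 4 accessory subunits that did not pass were Ndufa1, Ndufa8, Ndufb10 and Ndufv3, with differences from -0.26 to 0.24.

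Complex II is the only one whose subunits are all nuclear, and it also works in the citric acid cycle. Here 3 of 4 genes were higher (75%, against 43.2% of all genes tested), with a median of 0.54 (-0.41 with spike-in scaling). Sdhb, the iron-sulfur subunit, stood at 4.66, 4.60 and 4.65 in control cells, 4.87, 4.65 and 4.81 in knockdown cells and 5.35, 5.74 and 5.58 in PGCs (0.92, SE 0.11, adjusted p = 8.5e-05). Sdha reached 4.49, 4.51 and 4.64 in PGCs (0.78, SE 0.09, adjusted p = 4.2e-05), above both ES cell groups. Of the membrane anchors, Sdhc rose by 0.31 (adjusted p = 0.023), which failed the threshold without control replicate 1 or 3 or PGC replicate 1 or 3, and Sdhd did not pass (-0.15, adjusted p = 0.19).

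In complex III, 5 of 8 genes were higher (62.5%, against 43.2% of all genes tested), with a median of 0.40 (-0.56 with spike-in scaling). The small subunits led: Uqcr11 stood at 5.12, 5.22 and 5.19 in control cells, 5.21, 5.27 and 5.32 in knockdown cells and 5.78, 6.15 and 5.97 in PGCs (0.79, SE 0.10, adjusted p = 0.00013). Uqcrh, the hinge protein, stood at 5.28, 5.44 and 5.44, then 5.12, 5.45 and 5.44, then 6.05, 6.22 and 6.08 (0.73, SE 0.11, adjusted p = 0.00037). Uqcrfs1, the Rieske iron-sulfur protein and one of the redox subunits, rose by 0.34 (adjusted p = 0.0057). The core proteins Uqcrc1 and Uqcrc2, which face the matrix, did not pass in any of the 3 comparisons, with PGC differences from control of -0.05 (SE 0.08, adjusted p = 0.60) and -0.08 (SE 0.08, adjusted p = 0.39).

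Of 17 tested complex IV genes, 10 were higher and 1 lower (58.8% and 5.88%, against 43.2% and 32.4% of all genes tested). Their median was 0.43 (-0.52 with spike-in scaling). Without the tissue-restricted isoforms, 8 of 11 were higher (72.7%). Cox7a2 stood at 4.29, 4.46 and 4.46 in control cells, 3.99, 4.13 and 4.20 in knockdown cells and 5.05, 5.47 and 5.23 in PGCs (0.84, SE 0.12, adjusted p = 0.00022). Cox7a2l, which joins complexes III and IV into supercomplexes, stood at 5.32, 5.39 and 5.56, then 5.11, 5.16 and 5.28, then 6.09, 6.28 and 6.27 (0.79, SE 0.10, adjusted p = 9.6e-05). Both lay higher on every PGC array than on any ES cell array, and neither passed in knockdown cells (adjusted p = 0.084 and adjusted p = 0.085). Cox6a1 was at 7.44, 7.39 and 7.52, then 7.53, 7.41 and 7.47, then 7.75, 8.02 and 7.89 (0.43, adjusted p = 0.0025). With spike-in scaling the differences of Cox7a2, Cox7a2l and Cox6a1 were -0.11, -0.16 and -0.52.

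In complex V, 9 of 16 genes were higher and 1 lower (56.25% and 6.25%, against 43.2% and 32.4% of all genes tested). The median was 0.35 (-0.60 with spike-in scaling), beside 0.18 for all genes. Of 5 small membrane subunits (Atp5j2, Atp5k, Atp5l, Atp5md and Atp5mpl), 5 were higher. Atp5l, subunit g, stood at 3.996, 4.20 and 4.30 in control cells, 4.29, 4.31 and 4.17 in knockdown cells and 5.13, 5.34 and 5.19 in PGCs (1.06, SE 0.10, adjusted p = 2.1e-05). Atp5j2, subunit f, stood at 5.47, 5.62 and 5.61, then 5.54, 5.56 and 5.52, then 6.17, 6.54 and 6.39 (0.80, SE 0.10, adjusted p = 0.00013). Of the c ring genes, Atp5g2 stood at 7.09, 7.002 and 7.21, then 6.84, 6.72 and 6.83, then 7.63, 7.97 and 7.77 (0.69, adjusted p = 0.00038), and Atp5g3 did not pass (0.20, adjusted p = 0.057).

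The F1 head, where ATP is made, held the one common subunit that fell. Atp5a1, the alpha subunit, stood at 5.62, 5.77 and 5.58 in control cells, 5.59, 5.47 and 5.39 in knockdown cells and 4.42, 4.71 and 4.61 in PGCs. All 3 PGC arrays lay below all ES cell arrays, and the difference was -1.08 (SE 0.11, adjusted p = 1.9e-05). Its partner Atp5b, the catalytic beta subunit, went the other way, from 6.64, 7.003 and 7.08 in control cells to 7.24, 7.49 and 7.39 in PGCs (0.47, SE 0.13, adjusted p = 0.0098), or -0.49 with spike-in scaling. Atp5e rose by 0.75 (adjusted p = 0.00021) and Atp5c1 by 0.30 (adjusted p = 0.033), the latter not without control replicate 1 or 2 or PGC replicate 2 or 3, and Atp5d did not pass (0.12, adjusted p = 0.31). Of the 4 peripheral stalk genes (Atp5pb, Atp5h, Atp5j and Atp5o), which hold the head still, none passed in this comparison, with differences from -0.18 to 0.39. Atp5o came nearest (adjusted p = 0.051). With quantile normalization 2 of the 4 were lower.

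**Figure D5:**
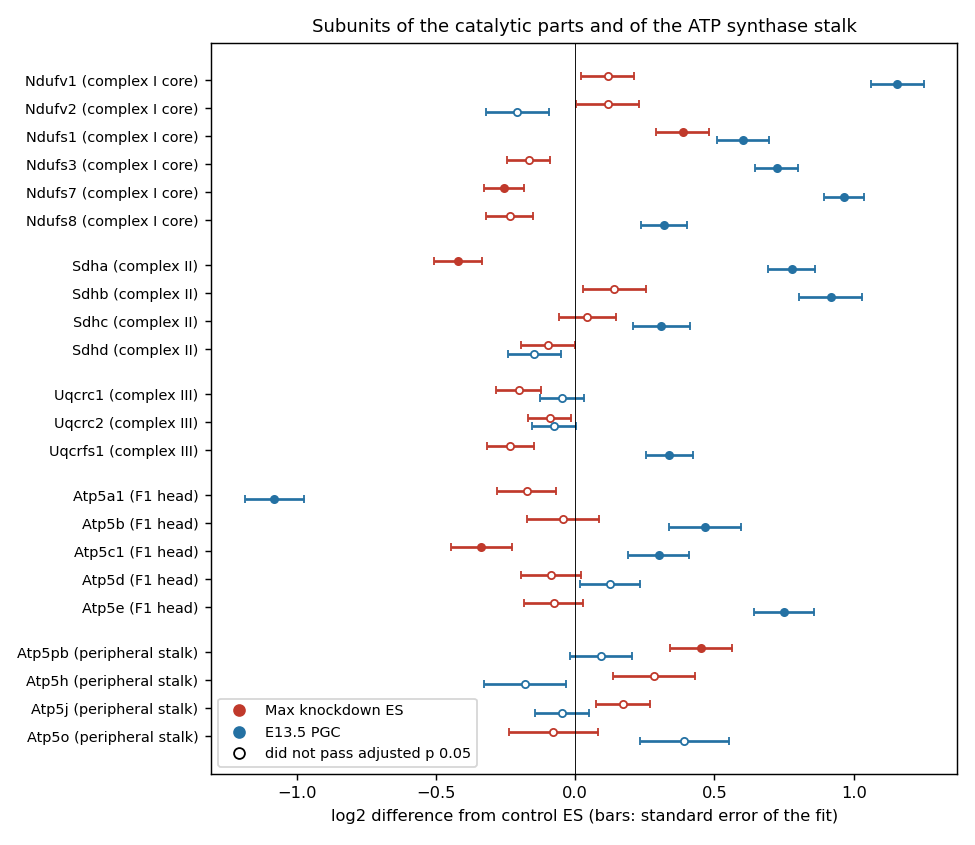
Log2 differences from control ES cells of catalytic core subunits of complexes I, II, III and V and of the ATP synthase peripheral stalk in Max knockdown cells and PGCs, relative to the 75th percentile, with the SE of the limma fit; open symbols did not pass adjusted p 0.05. Within complex I the PGC values run from -0.21 (Ndufv2) to 1.16 (Ndufv1), and Atp5a1 lies at -1.08 while Atp5b lies at 0.47; with spike-in scaling all but Ndufv1 and Ndufs7 of those that rose turn negative.

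Genes with several probes allowed a check of the values. Of 22 such subunit genes, 3 had probes that differed by more than 1.5-fold in this comparison. For Cox7c, of whose 3 probes 1 was too dim to be tested, the probe used gave 0.64 and the other tested one -0.03, for Ndufb11 0.78 and -0.0025, and for Ndufb5 0.35 and 1.05, so the rises of Cox7c and Ndufb11 were seen with 1 of 2 tested probes each. In the knockdown comparison the probes of Ndufb11 gave -0.05 and -0.66. Of the 17 called genes with several probes, 15 had all probes in 1 direction. No slide held both PGC and ES cell arrays, so slide and group cannot be told apart here. Lower members numbered 7 without PGC replicate 2.

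Markers of other cells were counted in the same comparison. Of 11 tested markers of gonadal somatic cells, 6 were higher and 2 lower in PGCs than in control cells. That is 54.5% and 18.2%, against 43.2% and 32.4% of all genes tested. Their summed level was 1.62 to 1.92 on control arrays, 1.29 to 1.65 on knockdown arrays and 1.90 to 2.84 on PGC arrays. Amh, of Sertoli cells, was well above background on 3 PGC arrays and on 0 ES cell arrays. Sox9, of the same list, did not pass (0.06, adjusted p = 0.86). The 2 lower genes were Wt1 (-0.996, adjusted p = 0.01) and Pdgfra (-2.56, adjusted p = 0.00014). Of 6 tested blood and endothelium markers, 2 were higher and 1 lower in PGCs (33.3% and 16.7%). The haemoglobin gene Hba-a1 at 3.89 and Pecam1 at 0.39 were higher, and Tie1 at -3.18 was lower. The other haemoglobin gene, Hbb-bh1, did not pass (0.57, adjusted p = 0.10). Fibroblast markers were mostly lower, with 7 of 8 down and 1 up (87.5% and 12.5%) and a summed level of 0.25 to 0.58 on PGC arrays. The part of these cells in the differences of the subunit genes was not tested.

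The third comparison, PGCs against Max knockdown cells, shares its arrays with the other 2, so its values stand beside them and are not separate evidence. Here 58 of 82 subunit genes were higher and 8 lower, which is 70.7% and 9.76%, against 44.9% and 31.4% of all genes. The median was 0.53 beside 0.21 for all genes, and -0.44 beside -0.76 with spike-in scaling. With that scaling 0 were higher and 8 lower, beside 1001 and 7274 of all genes. With quantile normalization 44 were higher and 11 lower, beside 8575 and 6812 of all genes. By complex, 28 were higher and 4 lower of 37 in complex I, 3 and 0 of 4 in complex II, 4 and 0 of 8 in complex III, 13 and 1 of 17 in complex IV, and 10 and 3 of 16 in complex V. The lower genes included Ndufa4l2, Ndufa1, Ndufv2, Cox4i2, Atp5a1, Atp5h and Atp5pb.

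Ndufa4l2 was lower by 3.81 (log2 -3.81, adjusted p = 3.5e-07), Cox4i2 by 0.94 (log2 -0.94, adjusted p = 0.00057) and Atp5a1 by 0.91 (log2 -0.91, adjusted p = 5.9e-05). These 3 and Ndufa1 kept their call with each array left out. The other lower genes had smaller differences. Atp5h, stalk subunit d, stood at 5.83, 5.86 and 5.77 in control cells, 6.22, 6.04 and 6.04 in knockdown cells and 5.34, 5.97 and 5.60 in PGCs (-0.46 against knockdown, adjusted p = 0.019). Without knockdown replicate 1 or 4, 5 members were lower, and without PGC replicate 1 or 3, 4 were.

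Of the rises over knockdown cells, 12 were at least 2-fold. Cox7b2 was 1.48 higher (adjusted p = 0.00022), Ndufb2 1.35 (adjusted p = 5.1e-05), Cox8c 1.27 (adjusted p = 0.001), Ndufa6 1.24 (adjusted p = 3.5e-06), Ndufs7 1.22 (adjusted p = 9.1e-07) and Sdha 1.198 (adjusted p = 2.9e-06). In complex V, Atp5g2 was 0.99 higher (adjusted p = 3.8e-05) and Atp5l 0.96 (adjusted p = 3.8e-05). Uqcrh and Uqcr11 of complex III were 0.77 and 0.70 higher (adjusted p = 0.00024 and adjusted p = 0.00028). Uqcrh and Uqcr11 were -0.20 and -0.27 with spike-in scaling.

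Other genes of the pathway, listed with earlier results known, were counted the same way. Shares over all genes tested, for comparison, were 18.2% higher and 21.9% lower in knockdown cells, and 43.2% and 32.4% in PGCs against control cells. Of 77 tested mitochondrial ribosomal protein genes, which serve translation of the mitochondrially encoded subunits, 4 rose and 21 fell in knockdown cells (5.19% and 27.3%), with a median of -0.17. In PGCs 54 were higher than in control cells and 7 lower (70.1% and 9.09%), with a median of 0.53 (-0.42 with spike-in scaling). Of 47 assembly factors, which help build the complexes, 7 rose and 9 fell in knockdown cells (14.9% and 19.1%), and 25 were higher and 11 lower in PGCs than in control cells (53.2% and 23.4%; median 0.36, or -0.60 with spike-in scaling). The largest PGC difference among these was Sdhaf4, an assembly factor of complex II, at 2.31 (adjusted p = 2.9e-08), and the lowest was Higd1a, a hypoxia-inducible factor of complex IV, at -1.75 (adjusted p = 3e-07). Of 19 citric acid cycle and pyruvate dehydrogenase genes, 4 rose and 6 fell in knockdown cells (21.1% and 31.6%), and 10 were higher and 4 lower in PGCs (52.6% and 21.1%; median 0.19, or -0.76 with spike-in scaling).

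A list of electron carriers, ubiquinone synthesis genes and the subunit genes Ndufab1 and Cyc1, which the symbol rule does not take in, gave 5 rises and 2 falls of 17 in knockdown cells (29.4% and 11.8%), and 11 rises and 0 falls in PGCs (64.7%; median 0.59, or -0.36 with spike-in scaling). The knockdown rises were Cyct at 1.87, Coq8a, a kinase-like protein of ubiquinone synthesis, at 1.36, the electron transfer flavoprotein genes Etfdh at 0.76 and Etfa at 0.66, and Pdss1 at 0.44. Cyct, the testis cytochrome c, stood at -0.92, -1.12 and -0.82 in control cells, 1.04, 0.73 and 0.99 in knockdown cells and 3.00, 3.32 and 3.14 in PGCs. It rose by 1.87 in knockdown cells (adjusted p = 2.9e-05) and by 4.11 in PGCs (adjusted p = 3.3e-08), while Cycs, the common cytochrome c, was at -0.17 (adjusted p = 0.15) and 0.68 (adjusted p = 8.1e-05). Of 4 genes for ADP/ATP and phosphate carriers, 1 rose and 2 fell in knockdown cells, and 3 were higher and 1 lower in PGCs. Slc25a31, the germ cell ADP/ATP carrier, rose by 4.26 in knockdown cells (adjusted p = 1.3e-06) and by 4.69 in PGCs (adjusted p = 4.2e-08). Slc25a4, another ADP/ATP carrier, fell by 0.55 in knockdown cells (log2 -0.55, adjusted p = 0.0026) and rose by 1.46 in PGCs (adjusted p = 1.9e-06). Slc25a5, a further ADP/ATP carrier of the list, went the other way in PGCs (-0.98, adjusted p = 0.00084) and did not pass in knockdown cells (-0.19, adjusted p = 0.43).

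Of 20 tested genes of mitochondrial biogenesis and mitochondrial DNA expression, 4 rose and 4 fell in knockdown cells (20% each, against 18.2% and 21.9% of all genes), and 11 were higher and 6 lower in PGCs than in control cells (55% and 30%, against 43.2% and 32.4%; median 0.43, or -0.52 with spike-in scaling). Esrra, a nuclear receptor that activates respiratory chain genes, was lower in PGCs by 2.12 (log2 -2.12, adjusted p = 1.7e-07), and Gabpb1, a subunit of the ETS factor NRF2, by 1.52 (log2 -1.52, adjusted p = 1.4e-06). Nrf1 rose by 0.60 in knockdown cells (adjusted p = 0.0064) and did not pass in PGCs (0.24, adjusted p = 0.12). Lrpprc, which stabilises mitochondrial mRNAs, rose by 1.57 in PGCs (adjusted p = 2.1e-06), and Tfam, which packages mitochondrial DNA, fell by 0.28 in knockdown cells (log2 -0.28, adjusted p = 0.036). Ppargc1b was above background on no array and Ppargc1a on 2 PGC arrays and 0 ES cell arrays. Pprc1, of the same list, rose by 1.47 in PGCs (adjusted p = 7.3e-06) and by 0.52 in knockdown cells (adjusted p = 0.01).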

How the data were processed

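Agilent 1-colour arrays of 9 samples were used, whose images, per the file headers, were quantified with Feature Extraction 10.7.3.1. The signals are intensities that the authors' extraction had background-subtracted and detrended within each array. The deposited value table holds log2 values; after each array's 75th percentile is subtracted and each probe centred, the scanner signals correlated with it at 0.9999 or more on each array, its column medians lay from -0.12 to 0.39, and its scale and centring are not given in the sources used here.

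Here log2 signals were scaled to the 75th percentile of each array. Spots of a probe were averaged, and 65 probes with outlier flags were left out. Of 39364 probes, 26012 were named through RefSeq accessions. The probe with the highest mean stood for a gene. A gene was tested if its probe was flagged well above background on each array of any group. Tests used limma 3.58.1 (lmFit and eBayes, R 4.3.3) over all 9 arrays, with Benjamini-Hochberg adjustment over 20443 genes and a threshold of 0.05; this fit gives every adjusted p in the text. An exact permutation test of 3 against 3 arrays cannot go below 0.1. The scripts were tested on simulated data.

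The members and all lists were chosen with earlier results of these data known. Values on every array are given for the isoform genes above background and, in each complex and comparison, for up to 2 members with the largest rise and the largest fall; further genes were named by their role after values were seen. Values of some genes are not reported here. The alternatives were quantile, median and spike-in scaling, normexp background correction, the deposited table, other filters, probe means, an intensity trend, blocks for replicate number and slide, and each array left out. The number of arrays limits the precision.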

Additional observations from a re-analysis of the deposited data

How the results depend on the processing

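The alternatives were run on the counts, medians and named genes; the fixed slide block and within-slide values (differences with no count) apply to the knockdown comparison, the random slide block to the PGC comparisons, and the filter on all 9 arrays leaves out Cox6a2. For the Max knockdown, quantile normalization gave 15 higher, 5 lower and a median of 0.083, median scaling a median of -0.11, spike-in scaling 1 higher and 0 lower, normexp 1 and 1 with a median of -0.43, and no filter 3 lower. Over all genes tested, higher and lower numbered 3783 and 4318 with quantile normalization, 719 and 288 with spike-in scaling, and 563 and 319 with normexp. With no filter they numbered 3174 and 3365 of 32450. The replicate block gave 2 higher and 2 lower, beside 2856 and 3242 of all genes. Leaving out 1 array gave 4 to 8 lower. For PGCs against control cells, quantile normalization gave 11 lower and a median of 0.32, spike-in scaling 1 higher and 5 lower with a median of -0.48, and normexp 9 higher. Leaving out 1 array gave 3 to 7 lower. Over all genes tested, higher and lower here numbered 8364 and 6978 with quantile normalization, 1162 and 7458 with spike-in scaling, and 3021 and 2991 with normexp. For PGCs against knockdown cells, quantile normalization gave a median of 0.29, median scaling 4 lower, spike-in scaling 0 higher and a median of -0.44, normexp 36 higher and 2 lower with a median of 0.83, and the replicate block 4 lower. Leaving out 1 array gave 4 to 10 lower. Over all genes tested, higher and lower here numbered 9675 and 5937 with median scaling and 1001 and 7274 with spike-in scaling. They numbered 3844 and 3345 with normexp and 8625 and 6099 with the replicate block. Same-numbered control and knockdown arrays, 2 pairs that also shared a slide, deviated together (correlations of deviations from the group means 0.37 and 0.39), and pairs with PGCs did not (-0.03 to 0.02), so the replicate block was not taken as a pairing.

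Spike-in scaling turned 20 named genes that had passed the test negative for PGC minus control: Sdhb -0.034, Sdha -0.17, Sdhc -0.64, Uqcr11 -0.16, Uqcrh -0.23, Uqcrfs1 -0.61, Cox4i1 -0.50, Cox6a1 -0.52, Cox6b1 -0.35, Cox7a2 -0.11, Cox7a2l -0.16, Ndufa4 -0.67, Ndufs1 -0.35, Ndufs3 -0.23, Ndufs8 -0.63, Atp5b -0.49, Atp5c1 -0.65, Atp5e -0.20, Atp5g2 -0.26 and Atp5j2 -0.15. For PGC minus knockdown it turned 18 that had passed: Sdhb -0.19, Sdhc -0.71, Uqcrh -0.20, Uqcr11 -0.27, Uqcrfs1 -0.40, Cox4i1 -0.38, Cox6a1 -0.55, Cox6b1 -0.041, Cox6b2 -0.36, Cox7b -0.42, Ndufs3 -0.079, Ndufs8 -0.42, Atp5l -0.0051, Atp5b -0.46, Atp5c1 -0.33, Atp5e -0.14, Atp5g3 -0.52 and Atp5o -0.50. Normexp turned Ndufs1 (-0.0045) and Cox4i2 (0.087) in the knockdown, and Ndufv2 (0.014) for PGCs against knockdown cells. Its fit was disturbed by the lowest spots; a fit without 50 of them on each array, added after seeing the data, gave medians of -0.04, 0.43 and 0.48. With spike-in scaling the all-gene median of PGC minus control moved to -0.77. The 75th percentile over the spike-ins differed between slides, and its cause was not tested. Signal over background limits Cox6a2 and Cox8b, and Cox7b2 was dim on the control arrays.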
